A study of Mus musculus with 12 samples.

Results

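The collagen genes of whole mouse corneas were the 44 genes, of 19702 in the deposited table, whose symbol reads Col, a number, the letter a and a number. They were followed in 12 RNA-seq libraries that form 4 groups of 3. Each library pooled 6 corneas of 3 mice. Control corneas had neither injury nor treatment. Vehicle corneas were injured with BAK, the preservative that the series title names as benzalkonium chloride, and are labelled as untreated. UCS and UCPRP corneas had the same injury and received the biologic of that name. The series title gives cord blood as the source of these biologics, and the abbreviations are not expanded in the labels. Each eye of the 3 injured groups received 5 µl of 0.2% BAK daily for 14 days, and the treated eyes received 5 µl of 20% UCS or UCPRP 3 times daily for 10 days. The strain, sex and age of the mice, the time of harvest and any overlap of the drops with BAK were not stated in the sources used here. Whether Vehicle eyes received any drops after BAK was not stated either. The question of the design is how the injury changes gene expression and how the treated injured corneas compare with untreated ones.

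Collagens are trimers of chains that wind into a triple helix. Fibrillar collagens form the stromal fibrils of the cornea: type I makes up their bulk, type V starts fibrils and limits their width, and type III is scarce in the uninjured stroma and is known from healing wounds. FACIT collagens, such as types XII and XIV, lie on fibril surfaces. Type IV forms the network of basement membranes, type VII the anchoring fibrils below the epithelium, and type VIII the hexagonal lattice of Descemet's membrane, which the corneal endothelium lays down. Type XVII is a transmembrane collagen of the hemidesmosomes that fix basal epithelial cells to their basement membrane.

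The members were grouped into 11 fibrillar, 9 FACIT, 6 basement membrane, 6 beaded filament, 4 transmembrane, 3 hexagonal network, 2 multiplexin and 2 other genes, and the anchoring fibril gene Col7a1. Of the 44 genes, 43 passed the filter on low counts. The member left out, Col6a5, had 0 to 0.61 CPM (estimated counts per 1 M, scaled by TMM factors) in the 12 libraries. All 44 together took 0.515 to 0.737% of the estimated counts in Control, 0.731 to 1.04% in Vehicle, 0.597 to 0.822% in UCS and 0.753 to 0.931% in UCPRP.

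The upstream bases of the member that rose most after injury, of the member that fell most, and of a gene pair that shares its upstream sequence are printed here because the results below turn on these genes. Sequences come from RefSeq (GRCm38.p6) and are cut at the gene starts of GENCODE M21, 5′ to 3′ on the strand of the gene. The Col3a1 sequence is chr1:45311288-45311537 (plus strand) and the Col17a1 sequence is chr19:47692095-47692292 (minus strand). The Col4a3-Col4a4 sequence is chr1:82586850-82586920 (plus strand), the whole 71 bases between the starts of the divergent genes Col4a4 and Col4a3. Capitals mark TATAAA.
Col3a1: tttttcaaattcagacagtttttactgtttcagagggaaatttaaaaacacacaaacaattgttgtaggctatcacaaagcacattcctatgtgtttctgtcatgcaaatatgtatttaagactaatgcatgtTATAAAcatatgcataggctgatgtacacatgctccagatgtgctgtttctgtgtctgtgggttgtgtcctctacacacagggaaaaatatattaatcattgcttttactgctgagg
Col17a1: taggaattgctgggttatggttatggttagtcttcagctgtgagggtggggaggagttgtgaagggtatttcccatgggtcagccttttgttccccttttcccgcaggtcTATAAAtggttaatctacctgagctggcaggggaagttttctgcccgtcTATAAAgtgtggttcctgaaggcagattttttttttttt
Col4a3-Col4a4: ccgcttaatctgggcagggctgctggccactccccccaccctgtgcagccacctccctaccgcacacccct

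Both strands were searched for the motif TATAAA, for the motif CCAAT and for TGANTCA (the binding motif of AP-1 factors), and no 2 matches overlapped in the printed sequences. In Col3a1 the TATAAA began 117 bases before the gene start. Col17a1 held it 88 and 39 bases before the start. The Col4a3-Col4a4 interval held none of the 3 motifs. RefSeq windows were found for 35 of the 44 collagen genes, with 38 windows in all because some genes have several. Over the 250 bases before each start, 5 of the 38 collagen windows held TATAAA, 13 held CCAAT and 1 held TGANTCA. Among all 32851 promoters of the table the shares were 12.4%, 33.8% and 6.75%. A match describes these letters only.

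Library totals ran from 18.6 to 20.4 M estimated counts, so that 3 counts corresponded to 0.147 to 0.178 CPM (counting error only). The libraries differed in tissue makeup. All 7 lens markers were above 0 in every library, but their summed level was 2721 to 25756 CPM in 6 libraries (Control 1 and 3, Vehicle 2, UCS 2, UCPRP 1 and 3) and 32.6 to 437 CPM in the other 6. All 9 retina markers were also above 0 throughout, with sums of 2416 to 14378 CPM. The summed 12 skeletal muscle markers were highest in Vehicle 3 (1499 CPM). The 7 markers each of keratocytes and corneal endothelium were above 0 in every library. Krt12, the defining keratin of corneal epithelium, had 15902 to 32870 CPM in Control but only 7.18 to 23.9 in Vehicle, 8.68 to 40.3 in UCS and 3.29 to 186 in UCPRP. Muc5ac, the goblet cell mucin of the conjunctiva, had 0.412 to 2.33 CPM in Control, 457 to 655 in Vehicle, 243 to 444 in UCS and 163 to 304 in UCPRP. The uninjured and injured libraries, though all labelled as cornea, therefore stood apart in these epithelial markers, and every comparison with Control also carries that difference. Of 7 cartilage markers, 4 were above 0 in every library, with sums of only 42.7 to 69.7 CPM. Per kilobase of exon, Col17a1 had the highest collagen level in Control, at 185 ± 28.6 RPKM (CPM per kilobase of exonic length; SD, n = 3). Col1a2 (136 ± 42.5), Col1a1 (125 ± 38.9) and Col8a2 (71.7 ± 5.60) followed in mean level, and Col1a2 and Col1a1 lay within each other's spread. The spreads of Col17a1 and Col1a2 also overlapped, as did those of Col8a2 and Col4a1 (63.6 ± 40.7). In Vehicle the order became Col1a1 (278 ± 111) and Col1a2 (276 ± 108), then Col3a1 (125 ± 17.1), Col17a1 (72.4 ± 23.6) and Col8a2 (71.7 ± 17.3). Neither the first pair nor the last pair of that order differed beyond its spread.

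After injury most fibrillar collagens were higher and the hemidesmosomal collagen gene Col17a1 was lower. In Vehicle against Control, 13 of the 43 tested collagens were called higher and 4 lower (edgeR quasi-likelihood F test, Benjamini-Hochberg adjusted p under 0.05 over 16124 genes). The same test called 9.58% of all genes higher and 6.92% lower, 16.5% in either direction. The higher ones were 8 of 11 fibrillar genes, 3 of 9 FACIT genes, the multiplexin gene Col15a1 and Col28a1. The lower ones were the FACIT genes Col9a1 and Col9a2 and the transmembrane genes Col13a1 and Col17a1. The median log2 fold change was 0.15 over the collagens and -0.00 over all genes, and 1.02 over the fibrillar class. In whole corneas, fewer cells of a type and less RNA per cell cannot be told apart, nor can more of either.

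**Figure D1:**
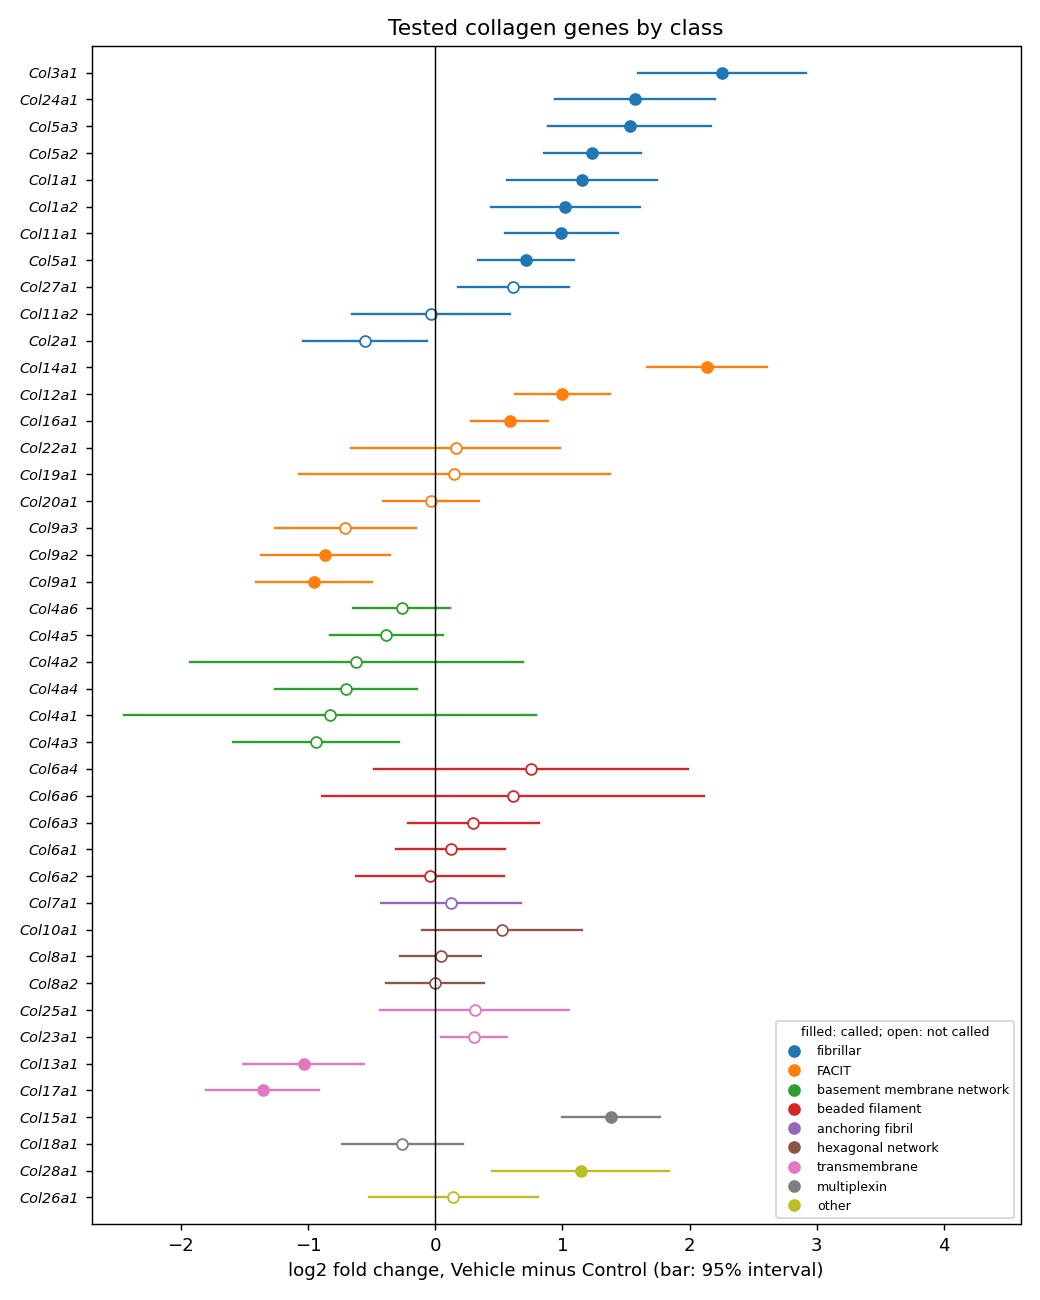
Log2 fold change of Vehicle minus Control for the 43 tested collagen genes, coloured by class; bars are 95% intervals, filled points were called and open points were not. The 8 filled fibrillar points lie between 0.71 and 2.26, and the 6 basement membrane points are all open and below 0.

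Col3a1 (chr1:45311538-45349706), the type III chain, showed the largest increase of any collagen. Its level was 123, 189 and 124 CPM in Control, 596, 702 and 787 in Vehicle, 176, 409 and 322 in UCS, and 219, 402 and 431 in UCPRP. All Vehicle libraries stood above every other library of the study, and the UCS and Control libraries overlapped. Vehicle was 4.78-fold above Control (log2 2.26, SE 0.34, adjusted p = 0.000986). The increase kept its size with the mean log2 level of the muscle markers as a covariate (2.47, adjusted p = 0.00413) and without Vehicle 3 (2.16, adjusted p = 0.00344). Within the lens-rich libraries alone it was 2.51 with an adjusted p of 0.0577, and within the lens-poor ones 1.87 with an adjusted p of 0.0801, for 1 or 2 libraries per group.

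Type I collagen, the bulk of the stromal fibril, rose as well, with more dependence on single libraries. Col1a1 (chr11:94936224-94953042) had 833, 913 and 479 CPM in Control, 1284, 1256 and 2407 in Vehicle, 971, 1415 and 1361 in UCS, and 1633, 1751 and 1539 in UCPRP. Its partner chain Col1a2 (chr6:4504814-4541544) had 770, 930 and 481 CPM in Control, 1129, 1156 and 2139 in Vehicle, 884, 1290 and 1134 in UCS, and 1258, 1641 and 1368 in UCPRP. For both genes Vehicle 3 was the highest of the 12 libraries, Control 3 the lowest, and Vehicle did not overlap Control. Col1a1 was 2.22-fold higher in Vehicle (log2 1.15, SE 0.30, adjusted p = 0.0222) and Col1a2 2.03-fold (log2 1.02, SE 0.30, adjusted p = 0.0384). Vehicle 3 also held the highest muscle marker sum. Without Vehicle 3 the Col1a1 difference was 0.77 (adjusted p = 0.0808) and without Control 3 it was 0.92 (0.0672). With the mean log2 level of the muscle markers as a covariate it was 0.97 (0.152). The Col1a2 call was lost under the same settings and several others, with adjusted p up to 0.209.

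Type V chains co-assemble with type I in thin fibrils. All 3 type V genes were called higher, as were the type XI gene Col11a1 and the minor fibrillar gene Col24a1. Col5a2 (chr1:45374321-45503282), a neighbour of Col3a1 with 24614 bases between the genes, had 119, 108 and 77.6 CPM in Control and 228, 200 and 289 in Vehicle. UCS had 165, 212 and 179 CPM and UCPRP 181, 203 and 245, so every injured library of Col5a2 exceeded every Control library. Its log2 difference in Vehicle was 1.23 (SE 0.19, adjusted p = 0.00131). Col5a1, whose chain pairs with that of Col5a2, rose by 0.71 on the log2 scale (SE 0.19, adjusted p = 0.0258), from 84.0 to 126 CPM in Control to 144 to 217 in Vehicle. Col5a3, the third type V chain, had 8.55, 7.83 and 11.6 CPM in Control and 27.1, 35.9 and 17.7 in Vehicle. That was a log2 difference of 1.53 (SE 0.33, adjusted p = 0.00792). Col11a1, a type XI chain, rose by 0.99 (SE 0.23, adjusted p = 0.0116) and Col24a1, a minor fibrillar collagen, by 1.57 (SE 0.32, adjusted p = 0.00619). Col24a1 stayed low in level, with 5.38 to 8.19 CPM in Control and 13.2 to 27.8 in Vehicle.

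The 3 fibrillar genes that were not called were Col27a1, Col11a2 and Col2a1. Col27a1 had a log2 difference of 0.61 (95% interval 0.18 to 1.05, adjusted p = 0.0897) and Col11a2 of -0.03 (-0.66 to 0.59). Col2a1, the main cartilage and vitreous collagen, had 35.0 to 41.5 CPM in Control and 14.5 to 34.1 in Vehicle (-0.55, adjusted p = 0.173).

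**Figure D2:**
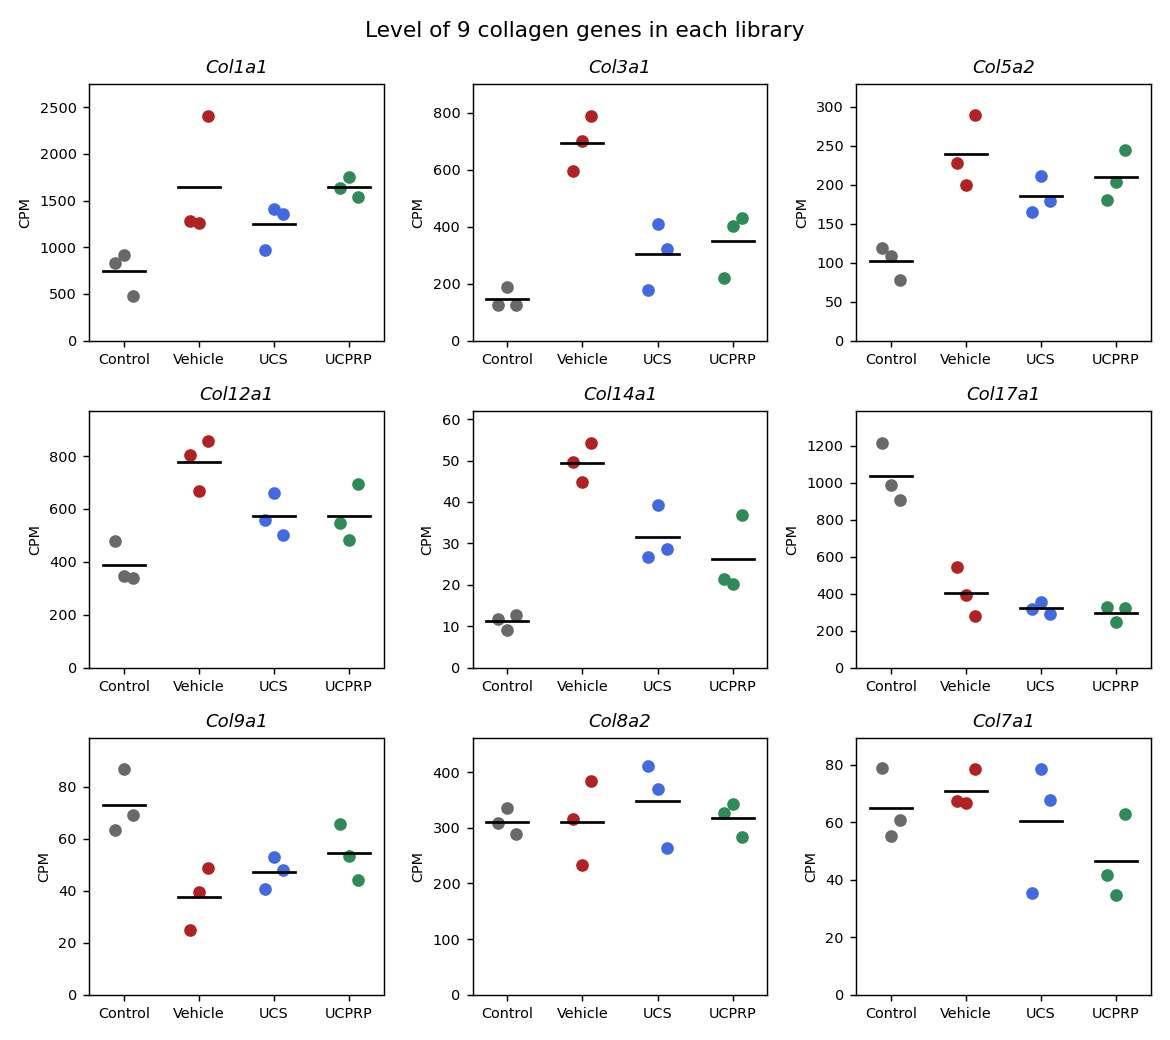
Level of 9 collagen genes in CPM (linear axes from 0) in each of the 3 libraries of Control, Vehicle, UCS and UCPRP; black lines are group means. Col3a1 and Col14a1 are highest in the 3 Vehicle libraries, Col17a1 is highest in the 3 Control libraries, and Col8a2 overlaps among all groups; Col7a1 overlaps between Vehicle and Control, and its UCPRP libraries lie below Vehicle.

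Of the 9 FACIT genes, Col14a1, Col12a1 and Col16a1 were called higher, the type IX genes Col9a1 and Col9a2 lower, and the other 4 in neither direction. Col14a1 (chr15:55307750-55520803) had 11.8, 9.19 and 12.7 CPM in Control, 49.7, 44.7 and 54.1 in Vehicle, 26.8, 39.3 and 28.7 in UCS, and 21.3, 20.2 and 36.9 in UCPRP. The 3 Vehicle libraries were the highest of the 12 and the 3 Control libraries the lowest. It was 4.40-fold higher in Vehicle (log2 2.14, SE 0.24, adjusted p = 0.000214), the smallest adjusted p of any collagen. Col12a1 (chr9:79598991-79718831), a much more abundant FACIT gene, had 477, 348 and 341 CPM in Control and 806, 669 and 857 in Vehicle. It had 559, 662 and 502 CPM in UCS and 548, 483 and 693 in UCPRP, and its log2 difference in Vehicle was 0.999 (SE 0.19, adjusted p = 0.00423). Col16a1 rose by 0.59 (SE 0.15, adjusted p = 0.0227), a call that was lost in 5 of 24 alternative settings.

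Type IX collagen coats type II fibrils in cartilage and vitreous. Col9a1 (chr1:24177610-24252684) had 63.3, 86.7 and 69.2 CPM in Control and 24.8, 39.6 and 48.9 in Vehicle, with no overlap. It fell by 0.95 on the log2 scale (SE 0.23, adjusted p = 0.0161), and Col9a2 fell by 0.87 (SE 0.26, adjusted p = 0.0420). Col9a3, the third chain, had a difference of -0.71 (95% interval -1.26 to -0.15) and an adjusted p of 0.120. The Col9a2 call was lost in 11 of 24 settings and that of Col9a1 in 2. The 6 pigment markers of iris and ciliary epithelium were above 0 in every library and summed to 4082 to 5585 CPM in Control and 2988 to 4691 in Vehicle. Their part in these differences was not tested. Col20a1, Col22a1 and Col19a1 had log2 differences of -0.03 to 0.16 and were not called.

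Col17a1 (chr19:47646344-47692094) was the collagen with the strongest decrease. It had 1214, 988 and 905 CPM in Control, 543, 392 and 280 in Vehicle, 315, 357 and 292 in UCS, and 326, 246 and 320 in UCPRP. Every injured library lay below every Control library, and the 3 injured groups overlapped one another. The difference of Vehicle from Control was a 2.56-fold decrease (log2 -1.36, SE 0.23, adjusted p = 0.00195). It was called in all 24 alternative settings, with adjusted p up to 0.0210. Within the lens-poor libraries it was -1.26 (adjusted p = 0.0810) and within the lens-rich ones -1.44 (0.133). The 6 corneal epithelium markers, of which 4 were above 0 in every library, summed to 31010 to 61470 CPM in Control and 11147 to 12994 in Vehicle, with Krt12 at 7.18 to 23.9 CPM in Vehicle. Not every member was lower in Vehicle: Krt5 had 11208 to 22563 CPM in Control and 5949 to 7101 in Vehicle, whereas Krt14, the other keratin of basal cells, had 495 to 867 in Control and 3642 to 5808 in Vehicle. The part of these epithelial markers in the decrease of Col17a1 was not tested.

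Of 7 other hemidesmosome genes tested, 1 was called higher in Vehicle and none lower, beside 9.58% and 6.92% of all genes. Lamb3, a chain of the laminin that hemidesmosomes bind, rose by 1.83 on the log2 scale (adjusted p = 0.000278). The integrin genes Itga6 and Itgb4, which were singled out after their values were seen, had means of 280 and 146 CPM in Vehicle against 285 and 142 in Control. Their log2 differences were -0.03 (SE 0.23) and 0.04 (SE 0.22).

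Of the other transmembrane collagens, Col13a1, which is found at cell adhesions, had only 3.88 to 4.57 CPM in Control and 1.61 to 2.50 in Vehicle (-1.03, SE 0.24, adjusted p = 0.0131). Col23a1 and Col25a1 had differences of 0.30 and 0.31 and were not called. Col7a1 (chr9:108953586-108984875), the single gene of the anchoring fibrils that run from the same basement membrane zone into the stroma, had 78.9, 55.0 and 60.8 CPM in Control and 67.4, 66.8 and 78.5 in Vehicle. Those groups overlapped, and the log2 difference was 0.13 with a 95% interval from -0.42 to 0.68.

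The Descemet's membrane genes overlapped among all groups. Col8a2 (chr4:126286793-126314330) had 308, 336 and 288 CPM in Control, 315, 234 and 383 in Vehicle, 410, 369 and 263 in UCS, and 327, 343 and 284 in UCPRP. Col8a1 (chr16:57624258-57754737) had 126 to 166 CPM in Control, 119 to 188 in Vehicle, 131 to 143 in UCS and 134 to 161 in UCPRP. Neither gene passed the test in any comparison. The log2 difference of Vehicle from Control was -0.00 for Col8a2 (95% interval -0.39 to 0.39) and 0.04 for Col8a1 (-0.27 to 0.36). The sign of the Col8a2 difference changed with the scaling, and that of Col8a1 changed with the muscle or lens covariate and when Control 3 or Vehicle 3 was left out. Col8a2 had 2.31 to 3.39 times the level of Col8a1 per exonic length in the 12 libraries. The 7 corneal endothelium markers summed to 1827 to 2060 CPM in Control and 1826 to 2325 in Vehicle. Col10a1, the third gene of this network class and a product of cartilage, stayed at 0.80 to 1.94 CPM.

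Col4a1 and Col4a2 varied with the lens markers across libraries, and the other 4 type IV genes did not separate in that way. The genes lie in 3 head-to-head pairs: Col4a1 and Col4a2 with starts 21 bases apart on chromosome 8, Col4a3 and Col4a4 with starts 72 bases apart on chromosome 1 around the short sequence printed above, and Col4a5 and Col4a6 with starts 1309 bases apart on chromosome X. Col4a1, a chain of the common basement membrane network, had 588, 110 and 564 CPM in Control, 189, 364 and 158 in Vehicle, 160, 594 and 127 in UCS, and 540, 124 and 1125 in UCPRP. The high values of every group were those of the lens-rich libraries: Col4a1 had 364 to 1125 CPM in the 6 lens-rich libraries and 110 to 189 in the 6 lens-poor ones. Col4a2, its partner, had 226 to 549 and 91.2 to 144 CPM. These were the only 2 of the 44 collagens whose values did not overlap between the 2 sets, where 0.552% of all 16124 genes were wholly above and 0.105% wholly below. The sets were drawn after the marker sums were seen.

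**Figure D3:**
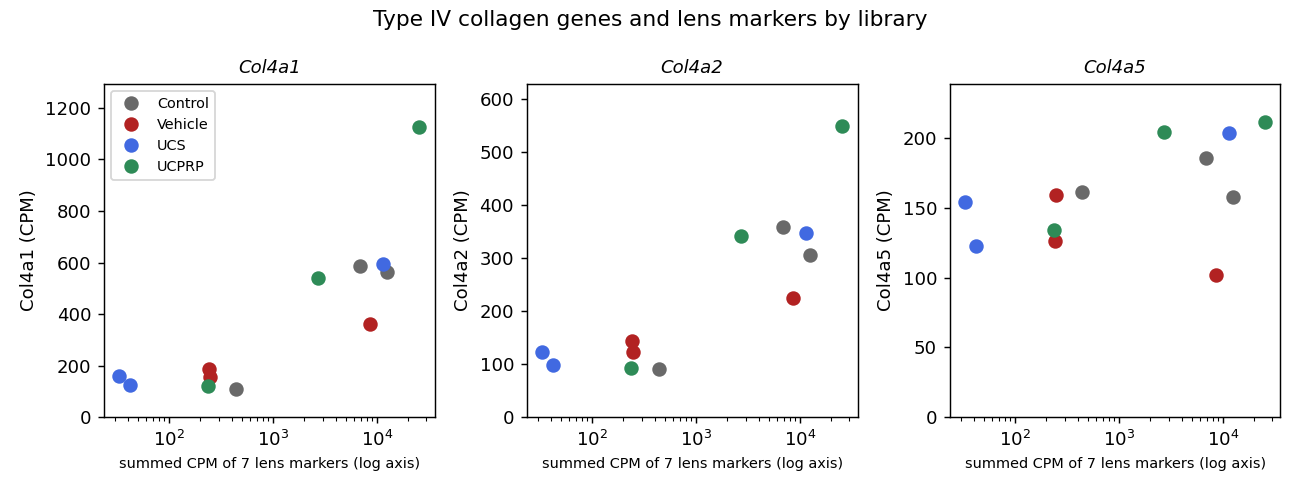
Level of Col4a1, Col4a2 and Col4a5 in CPM (vertical, linear) against the summed level of 7 lens markers in CPM (horizontal, log axis) for the 12 libraries, coloured by group. The 6 libraries above 2000 CPM of lens markers hold the 6 highest Col4a1 and Col4a2 values, whereas Col4a5 overlaps between the sets.

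Injury could not be read from Col4a1 on its own. The log2 difference of Vehicle from Control was -0.83 with a standard error of 0.83. It was 0.07 with the mean log2 level of the lens markers as a covariate and 0.66 within the lens-poor libraries. The ratio of Col4a1 to Col4a2 per exonic length also differed, at 1.54 to 2.0 in the lens-rich libraries and 1.17 to 1.29 in the lens-poor ones. Of the other chains, Col4a3, which Descemet's membrane holds together with the Col4a4 and Col4a5 chains, had 225, 171 and 208 CPM in Control and 96.6, 89.1 and 130 in Vehicle. Col4a4 had 135, 92.2 and 124 CPM in Control and 70.9, 65.9 and 79.3 in Vehicle. For both, all Vehicle libraries were below all Control libraries. The groups did not overlap in this direction for 7 of the 44 collagens, against 15.4% of all tested genes. In the edgeR fit of all 4 groups neither gene passed the test (Col4a3 -0.94, adjusted p = 0.0819, and Col4a4 -0.70, adjusted p = 0.128). DESeq2 called Col4a3 lower (adjusted p = 0.0303), as did edgeR without UCS 3. The edgeR fit of only the 2 groups called both. Col4a5 and Col4a6 had differences of -0.38 and -0.26 and overlapping groups.

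The multiplexins, which carry heparan or chondroitin sulfate chains near basement membranes, differed from each other. Col15a1 (chr4:47208161-47313167), known from vessel and muscle basement membranes, had 7.42, 6.23 and 9.79 CPM in Control, 23.1, 19.5 and 18.5 in Vehicle, 16.3, 14.8 and 11.7 in UCS, and 12.5, 10.1 and 13.9 in UCPRP. All 9 injured libraries were above all Control libraries, and Vehicle was above both treated groups. Its log2 difference in Vehicle was 1.38 (SE 0.20, adjusted p = 0.000759). The 7 vessel endothelium markers, all above 0 in every library, summed to 91.3 to 133 CPM in Control and 155 to 160 in Vehicle, then 107 to 134 in UCS and 110 to 125 in UCPRP. Within this list Kdr overlapped, with 26.5 to 48.5 CPM in Control and 27.1 to 46.0 in Vehicle. Tek did so too, with 6.88 to 11.1 and 8.11 to 11.9. Pecam1, Cdh5, Emcn, Vwf and Plvap were higher in every Vehicle library than in every Control library. The part of these vessel markers in the level of Col15a1 was not tested. Col18a1, the endostatin precursor gene, was far more abundant at 229 to 339 CPM in Control and 219 to 268 in Vehicle (-0.26, 95% interval -0.73 to 0.22).

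The beaded filament class of type VI collagen, the pericellular microfibrils, held no called gene. Col6a1, Col6a2 and Col6a3 had log2 differences of 0.12, -0.04 and 0.30 in Vehicle, with standard errors of 0.22 to 0.30. Col6a4 and Col6a6 stayed below 2 CPM, as did Col6a5, which was not tested. Col28a1, a low collagen known from peripheral nerve, had 0.67, 0.71 and 1.19 CPM in Control and 2.06, 1.56 and 2.09 in Vehicle (1.14, SE 0.35, adjusted p = 0.0484). This call held in only 9 of 24 alternative settings. Col26a1 had a difference of 0.14 and was not called.

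Ratios between chains within each library describe the mix of fibril messages apart from its amount. The ratio of Col3a1 to Col1a1, per exonic length, was 0.158, 0.221 and 0.275 in Control and 0.495, 0.595 and 0.348 in Vehicle. It was 0.193, 0.308 and 0.252 in UCS and 0.143, 0.245 and 0.299 in UCPRP, so the 3 Vehicle libraries held the 3 highest values. The ratio of Col14a1 to Col12a1 was 0.0465 to 0.0703 in Control, 0.116 to 0.126 in Vehicle, 0.0902 to 0.112 in UCS and 0.0733 to 0.1002 in UCPRP, again with Vehicle above all others. For Col5a2 to Col5a1 the split was different: 1.17 to 1.31 in Control and 1.62 to 2.01 in the 3 injured groups. The 2 type I chains kept close to each other, with Col1a1 to Col1a2 ratios of 0.886 to 1.17 in the 12 libraries. These ratios are given without a test. Col3a1 and Col14a1 were also the collagens with the largest increases in Vehicle, so their ratios partly repeat those values. The ratios of Col5a1 and of Col12a1 to Col1a1 overlapped between Control and Vehicle.

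**Figure D4:**
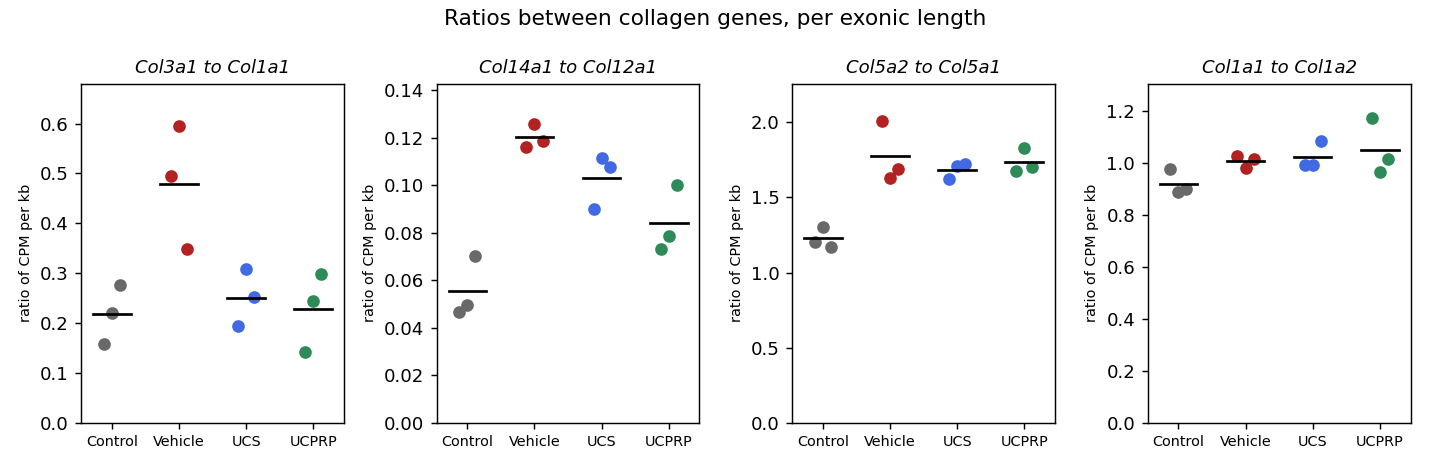
Ratio of CPM per kilobase of exon between pairs of collagen genes in each library of the 4 groups (linear axes from 0); black lines are group means. Vehicle is highest for Col3a1 to Col1a1 and for Col14a1 to Col12a1, all injured libraries are above Control for Col5a2 to Col5a1, and Col1a1 to Col1a2 stays between 0.886 and 1.17.

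Some of the genes that build and modify collagen were called higher after injury, while 14 of 21 folding genes and 6 of 13 processing genes were not called in either direction. The share over all genes was 9.58% higher and 6.92% lower. Of 21 genes for chain folding and modification, 6 were called higher and 1 lower in Vehicle (median log2 0.45). P4ha3, a prolyl hydroxylase subunit, had 8.35 ± 2.0 CPM in Vehicle (SD, n = 3) and 0.808 ± 0.278 in Control (log2 3.37, adjusted p = 9.8e-05). Creb3l1, a transcription factor of collagen secretion, rose by 1.62 and Serpinh1, the collagen chaperone HSP47, by 0.80. Of 13 genes for procollagen processing and crosslinking, 6 were higher and 1 lower (median 0.50). Lox, the lysyl oxidase that crosslinks fibrils, had 111 ± 10.0 CPM in Vehicle and 18.7 ± 1.84 in Control (2.57, adjusted p = 0.000239). The propeptidase gene Adamts14 rose by 2.82, and Tll2 fell by 2.60 at a level of under 2 CPM.

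All 6 listed genes of collagen degradation were called higher, beside 9.58% of all genes, with a median log2 difference of 3.17. Mmp13, an interstitial collagenase, had 45.4 ± 17.2 CPM in Vehicle and 0.976 ± 0.224 in Control (5.53, adjusted p = 0.000244), and Mmp9, a gelatinase, 36.6 ± 18.4 and 1.27 ± 0.552 (4.83, adjusted p = 0.000397). Of 9 tested collagen receptor genes, 5 were higher and 1 lower, beside 9.58% and 6.92% of all genes. Itga11, which pairs with the integrin beta 1 chain, rose by 1.57, and Ddr1, a receptor kinase of epithelia, fell by 0.65. Against the same shares, of 9 fibril proteoglycan genes Aspn (2.48), Bgn (1.28) and Lum (1.05) rose and Kera, keratocan of the keratocyte, fell by 1.45. Of 15 basement membrane partners of type IV collagen, Lama4 rose by 1.31 and 3 fell, among them Frem2 by 2.56 and Fras1 by 1.14.

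Summed markers of several cell types also differed between Control and Vehicle. The 6 markers of myofibroblasts and active fibroblasts (Acta2, Tnc, Postn, Fn1, Fap and Cthrc1) were above 0 in every library and summed to 779 to 930 CPM in Control, 1529 to 1863 in Vehicle, 1147 to 1562 in UCS and 1101 to 1577 in UCPRP. The 6 macrophage markers summed to 158 to 232, 642 to 820, 459 to 769 and 540 to 554 CPM in the same order. Within the fibroblast list, Tnc, Postn, Fn1 and Cthrc1 were higher in every Vehicle library than in every Control library. Acta2 overlapped, with 408 to 588 CPM in Control and 435 to 660 in Vehicle, as did Fap, with 8.34 to 10.1 and 7.77 to 15.1. The 12 skeletal muscle markers, 11 of them above 0 in every library, summed to 18.2 to 410 CPM in Control and 227 to 1499 in Vehicle. The 6 conjunctiva and goblet cell markers, 5 of them above 0 in every library, summed to 2680 to 6211 CPM in Control, 12837 to 18602 in Vehicle, 15178 to 19236 in UCS and 14197 to 18377 in UCPRP. The 7 keratocyte markers summed to 10191 to 21488, 3688 to 5730, 4310 to 7068 and 4910 to 7224 CPM in that order. Members of the keratocyte list did not move alike: Aldh3a1, a crystallin that corneal epithelium also expresses, had 6644 to 17376 CPM in Control and 654 to 1487 in Vehicle, whereas Lum had 317 to 476 and 626 to 1147. The 8 pericyte and smooth muscle markers and the 6 Schwann cell markers, above 0 in every library, overlapped between Control and Vehicle, with sums of 1009 to 1371 and 1007 to 1542 CPM for the first list and 310 to 373 and 260 to 330 for the second. The part of the fibroblast, macrophage, conjunctiva and keratocyte lists in the collagen differences was not tested, and the muscle values were given with the type I and type III genes above.

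Against uninjured corneas the treated groups showed fewer called collagens than Vehicle. UCS against Control had 4 collagens called higher and 1 lower of 43, where the test called 6.4% of all genes higher and 4.47% lower (10.9% in all). They were Col14a1 (log2 1.49, adjusted p = 0.00226), Col24a1 (1.33, 0.0200), Col15a1 (0.87, 0.0148) and Col5a2 (0.87, 0.0136), and lower Col17a1 (-1.69, SE 0.23, adjusted p = 0.000935). UCPRP against Control had 6 higher and 1 lower, where 5.3% of all genes were higher and 5.07% lower (10.4% in all). These were Col24a1 (1.45, adjusted p = 0.0145), Col3a1 (1.27, 0.0305), Col14a1 (1.22, 0.0076), Col1a1 (1.15, 0.0329), Col5a2 (1.04, 0.00582) and Col27a1 (0.85, 0.0336), and lower Col17a1 (-1.80, SE 0.23, adjusted p = 0.000761). The 3 comparisons share the Control libraries. A gene called in one of them and not in another was not thereby shown to differ, and the direct comparisons below give that test. The fibrillar class had a median of 0.75 in UCS and 0.85 in UCPRP, beside 1.02 in Vehicle.

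**Figure D5:**
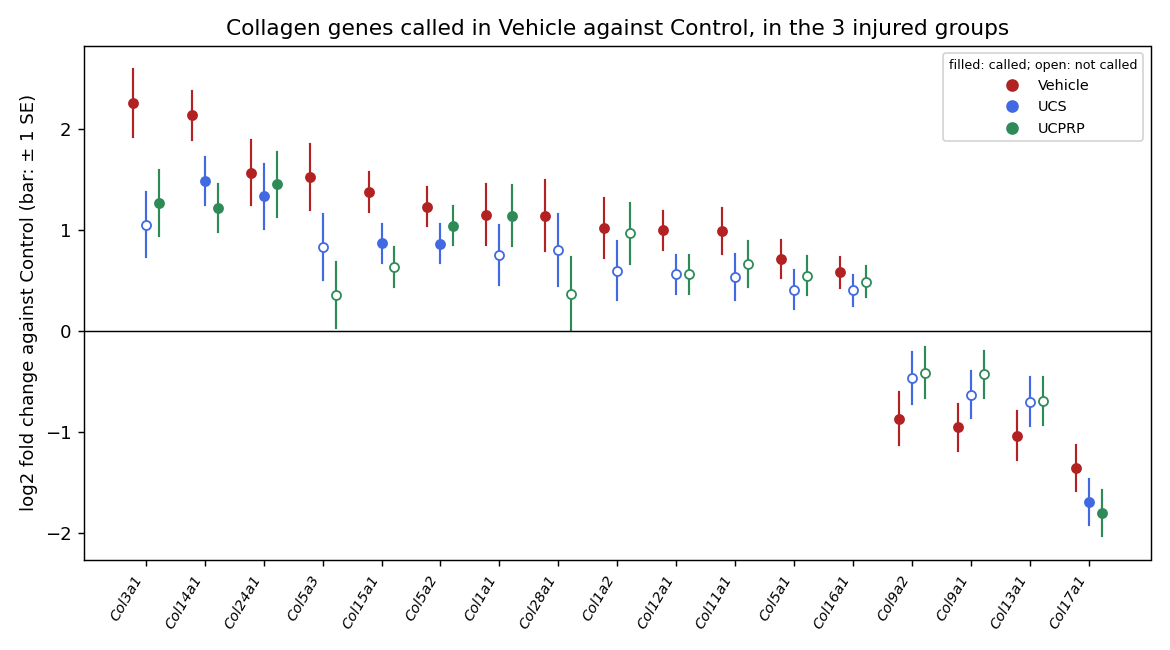
Log2 fold change against Control in Vehicle, UCS and UCPRP for the 17 collagens called in Vehicle; bars are 1 standard error to each side and filled points were called in that comparison. Col17a1 is at -1.36, -1.69 and -1.80, while Col3a1 is at 2.26, 1.06 and 1.27; all 3 comparisons share the Control libraries.

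By edgeR no collagen was called between a treated group and Vehicle, and DESeq2 called 3 in UCPRP against Vehicle. UCS against Vehicle had 0 of 43 collagens called by edgeR, and 0% of all 16124 genes. At an unadjusted p under 0.05 the edgeR test had 4 collagens and 782 genes (4.85%). DESeq2 called 14 genes (0.073%), none of them a collagen. The 4 collagens under that p were Col3a1, Col14a1, Col15a1 and Col12a1, all lower. They were also the 4 collagens whose UCS libraries all lay below all Vehicle libraries, against 4.45% of all genes. None lay wholly above, against 5.01%. Col3a1 was 2.30-fold lower in UCS (log2 -1.20, 95% interval -1.84 to -0.56, adjusted p = 0.894). For Col14a1 the difference was -0.65 (-1.10 to -0.20, adjusted p = 0.916). Col15a1 and Col12a1 had -0.51 and -0.44. Over all tested collagens the median was -0.18, beside -0.01 over all genes.

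UCPRP against Vehicle also had 0 of 43 collagens and 0% of all genes called by edgeR. The same test had 9 collagens and 1572 genes (9.75%) at an unadjusted p under 0.05. DESeq2 called 145 of 16584 genes (0.874%), of which 3 were collagens, all lower: Col14a1 (adjusted p = 0.0306), Col15a1 (0.0452) and Col5a3 (0.0493). By edgeR their log2 differences were -0.92 (95% interval -1.37 to -0.47, adjusted p = 0.331), -0.74 (-1.12 to -0.37, 0.331) and -1.17 (-1.80 to -0.54, 0.342). Col5a3 had 10.3, 9.76 and 15.8 CPM in UCPRP against 27.1, 35.9 and 17.7 in Vehicle. Col3a1 had -0.99 (-1.62 to -0.35, adjusted p = 0.374). The UCPRP libraries lay wholly below Vehicle for 6 collagens, against 7.13% of all genes, and wholly above for 2, against 6.69%. Those below were Col3a1, Col5a3, Col7a1, Col14a1, Col15a1 and Col28a1, and those above were Col2a1 and Col4a4.

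The type I genes were not among these. Col1a1 differed from Vehicle by -0.40 in UCS (95% interval -0.98 to 0.18) and by -0.01 in UCPRP (-0.59 to 0.57), and the UCPRP value changed sign to 0.37 without Vehicle 3. Col17a1 did not have a higher mean in either treated group than in Vehicle, with -0.33 in UCS (-0.77 to 0.11) and -0.45 in UCPRP (-0.89 to -0.01), adjusted p = 0.9998 and 0.552. Col7a1 had 41.7, 34.6 and 62.9 CPM in UCPRP, all below Vehicle, with a difference of -0.61 (-1.17 to -0.06, adjusted p = 0.521). In UCPRP the unadjusted p of the edgeR test was 0.0720 for Col17a1 and 0.0531 for Col7a1, although both intervals leave out 0. All 6 type IV genes had positive differences from Vehicle in both treated groups, none called by edgeR. Of the 3 libraries of each group, 1 was lens-rich in Vehicle, 1 in UCS and 2 in UCPRP.

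Between the 2 treated groups neither tool called a collagen. UCPRP against UCS had 0 of 43 collagens and 0% of all genes called by edgeR. The same test had 0 collagens and 393 genes (2.44%) at an unadjusted p under 0.05. Col1a1 was above UCS in all 3 UCPRP libraries (log2 0.39, 95% interval -0.19 to 0.98, adjusted p = 0.985), as were Col6a1 and Col6a2, against 4.91% of all genes. None was wholly below, against 5.75%. Col14a1 had a difference of -0.27 (-0.72 to 0.18) and Col17a1 of -0.11 (-0.55 to 0.33). The Vehicle to Control differences of Col3a1, Col14a1 and Col17a1 lie outside the intervals of the same genes between the treated groups. Those intervals are narrower than the F test implies. The 3 genes had the largest increases and the largest decrease in Vehicle, so no conclusion is drawn from this.

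By edgeR none of the 7 lists had a called member in UCS or UCPRP against Vehicle. Mmp13, of the degradation list, had 13.8 ± 8.06 CPM in UCS and 9.13 ± 5.69 in UCPRP beside 45.4 ± 17.2 in Vehicle (log2 -1.72, adjusted p = 0.894, and -2.31, adjusted p = 0.331). Lox had 58.3 ± 22.9 and 47.3 ± 15.6 CPM beside 111 ± 10.0 (-0.94 and -1.24, adjusted p = 0.894 and 0.331). Both genes were singled out after their values were seen. Against Control, Mmp13 was still called higher in UCS (3.82) and UCPRP (3.22), as was Lox (1.64 and 1.33).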

How the data were processed

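Qiagen RNeasy columns and the TruSeq Stranded Total RNA kit were used, per the labels' protocols. HISAT and the build GRCm38 are named in the submitters' processing notes; the counting tool, annotation and strand use were not given in the sources used here. Reads of overlapping genes, such as Col4a1 and Col4a2 at their starts, may therefore be shared. The table holds the authors' estimated counts per gene and library as deposited, not scaled to library size; 64.9% are whole numbers. They were rounded and tested with edgeR 4.0.16 (R 4.3.3): filterByExpr (minimum count 10, 16124 genes left), TMM factors (0.825 to 1.07), robust quasi-likelihood F test, 1 term per group over 12 libraries, Benjamini-Hochberg adjustment per comparison over all genes, called under 0.05. Standard errors derive from the F statistic (size of the log2 fold change over the root of F), and 95% intervals from the standard error and the normal quantile. Such intervals are narrower than the F test implies and can leave out 0 at an unadjusted p above 0.05. The method was tested on simulated data.

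CPM use the unrounded values, and RPKM the summed exon length of GENCODE M21 (GRCm38). Replicates are separate pools of mice; r of log2 CPM was 0.969 to 0.991 within groups. Same-numbered libraries of different groups mostly did not deviate together (7 of 18 pairs with r over 0.1). Every collagen may be named; of each pathway list, up to 4 called members per comparison with the largest change. The members and lists were chosen with earlier results of these data known. DESeq2 1.42.0, limma 3.58.1 (voom), other scalings and filters, covariates, subsets of libraries and leaving out each library were alternatives. Marker covariates were the mean log2 level over the genes of a list, not their summed CPM. Covariates for lens markers and the subsets by lens and Dbp level were added after the data were seen. Dbp, a clock gene, was low (14.7 to 25.9 CPM) in Control 3, Vehicle 1 and 2 and UCS 1 and 139 to 280 CPM in the others. One gene of the pathway lists is not reported here.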

Additional observations from a re-analysis of the deposited data

How the results depend on the processing

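Of the 17 collagens called in Vehicle against Control, 8 (Col3a1, Col5a2, Col5a3, Col12a1, Col14a1, Col15a1, Col17a1 and Col24a1) were called in all 24 alternative fits that used both groups' libraries outside the subsets below. The same held for 2 of 5 in UCS against Control (Col14a1 and Col17a1) and 3 of 7 in UCPRP against Control (Col5a2, Col14a1 and Col17a1). Vehicle against Control gave 11 collagens with the muscle covariate, 11 when a log2 difference of at least 1 was also asked, 1 within the lens-rich and 4 within the lens-poor libraries, and 11 and 5 within the libraries of high and low Dbp. Leaving out 1 library gave 12 to 16 (12 without Control 2, Control 3 or Vehicle 3). UCS against Control gave 8 collagens in DESeq2, 9 with the Dbp covariate, 8 with the retina covariate, 0 within lens-rich, 2 within lens-poor and 0 within low-Dbp libraries, 3 with the size limit, and 3 to 7 without 1 library (3 without Control 2 or UCS 2). UCPRP against Control gave 11 in DESeq2, 1 within lens-rich and 0 within lens-poor libraries, and 3 to 10 without 1 library (4 without Control 3 or UCPRP 2, 3 without UCPRP 3). UCPRP against Vehicle gave 3 in DESeq2. By edgeR, leaving out any 1 library gave 0 for that comparison, for UCS against Vehicle and for UCPRP against UCS. DESeq2 was fitted only with all 12 libraries, so its 3 calls were not followed in this way. Subsets held 1 or 2 libraries of a group, so a lone library was assumed to vary like the others, and the cause of these losses was not tested.

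Over all genes, Vehicle against Control had 2661 calls, and 268, 1177, 719 and 692 within the lens-rich, lens-poor, high-Dbp and low-Dbp libraries. With the muscle covariate Vehicle against Control had 1868 (11.6%), and without 1 library 1935 to 2550. UCS against Vehicle had 0, with 14 in DESeq2 and 37 without Vehicle 3. UCPRP against Vehicle had 0, with 145 in DESeq2 and 195 without Vehicle 3. In DESeq2, UCS against Control had 2252 calls (13.3%) and UCPRP against Control 2247 (12.97%). For UCS against Control the Dbp covariate gave 1658 (10.3%) and the retina covariate 2445 (15.2%). Leaving out 1 library gave 1089 to 1787 for UCS against Control and 998 to 1709 for UCPRP against Control. UCS against Control had 1753, with 1089 without UCS 3 and 97, 903 and 29 within lens-rich, lens-poor and low-Dbp libraries. UCPRP against Control had 1671, with 1009 without UCPRP 2, 998 without UCPRP 3, and 390 and 111 within lens-rich and lens-poor libraries.

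With the replicate number as a block, Vehicle against Control gave 14 collagens, UCS against Control 6, UCPRP against Control 6 and the other comparisons 0. Over all genes the first 3 of these gave 2300 (14.3%), 1493 (9.26%) and 1402 (8.7%). The numbers did not pair the libraries as a rule. The 18 same-numbered pairs had correlations of deviations from -0.637 to 0.559 (median -0.09, other pairs 0.06). Only 2 of 12 libraries correlated best with their own number. Vehicle 1 did correlate with UCS 1 (0.388) and UCPRP 1 (0.559), and UCS 1 with UCPRP 1 (0.426). Control 1 had -0.637, -0.304 and -0.321 with Vehicle 1, UCS 1 and UCPRP 1. A deviation shared by the injured libraries numbered 1 was therefore not excluded.

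Signs changed in 79 alternative values, none of them past the threshold there or as reported. Col4a1 (Vehicle against Control -0.83) was 0.070 with the lens covariate and 0.66 within lens-poor libraries. For UCS against Vehicle, Col4a1 was -0.27 within lens-poor and -0.79 within low-Dbp libraries and from -0.73 to 0.75 without 1 library. For UCPRP against Vehicle it was -0.49 within lens-poor libraries, and for UCPRP against UCS -0.053 with the lens covariate and -0.22 within lens-poor libraries. For UCS against Control Col4a1 was 0.55 with the lens covariate and 0.045, 0.39 and 0.049 within lens-rich, lens-poor and high-Dbp libraries, and for UCPRP against Control from -0.34 to 0.98 without 1 library.

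Col8a2 (Vehicle against Control) was 0.00094 with DESeq2 size factors, 0.025 with upper-quartile factors, 7.27e-05 in DESeq2, 0.0054 at a minimum count of 30, 0.033 with only the 2 groups, 0.0052 with the replicate block, 0.047 with the Dbp and 0.021 with the retina covariate, and -0.18 to 0.18 without 1 library. Col8a2 without 1 library ran from -0.014 to 0.34 for UCS against Vehicle, -0.15 to 0.21 for UCPRP against Vehicle (-0.034 with Dbp), -0.29 to 0.0084 for UCPRP against UCS and -0.025 to 0.11 for UCPRP against Control (-0.021 with muscle). Col8a1 was -0.041 with the muscle and -0.046 with the lens covariate for Vehicle against Control (-0.16 to 0.19 without 1 library). For UCPRP against Vehicle Col8a1 was 0.010 in limma-voom and 0.044, 0.016 and 0.062 with the muscle, retina and lens covariates (-0.16 to 0.19). It was -0.27 to 0.075 for UCS against Vehicle, -0.18 to 0.025 for UCS against Control, and -0.061 to 0.11 for UCPRP against Control (-0.017 with Dbp).

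For UCPRP against Vehicle, Col1a1 was 0.059 in limma-voom, 0.0040 with the replicate block, 0.12 with muscle and 0.047 with lens (-0.18 to 0.37 without 1 library), Col1a2 0.0038 in limma-voom and 0.052 with muscle (-0.21 to 0.32), and Col5a1 -0.31 to 0.037. For UCPRP against UCS, Col12a1 was -0.016 with DESeq2 size factors, -0.0070 with upper-quartile factors, -0.017 in DESeq2, -0.0073 in limma-voom, -0.022 with only the 2 groups, -0.011 with the replicate block, -0.051 with Dbp, -0.0074 with retina and -0.088 with lens (-0.16 to 0.11 without 1 library). In the same comparison Col17a1 ran from -0.18 to 0.0069, Col3a1 from -0.060 to 0.49 and Col5a1 from -0.0073 to 0.23. Col7a1 was -0.46 to 0.045 for UCS against Vehicle and -0.33 to 0.17 for UCS against Control (0.11 with lens). Depth limits the genes under 2 CPM, such as Col28a1, Col6a4 and Col6a6.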
